A study of Homo sapiens with 15 samples.

Results

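The 10 genes described here belong to the WNT pathway. They are the ligands WNT5A, WNT5B and WNT7B, the receptor FZD7, the secreted antagonists SFRP1, SFRP4, DKK1 and DKK3, and the intracellular members AXIN2 and LEF1. They were listed by name and not by a rule on their values, but with earlier results of these data known. All 10 were found among the 15510 genes of the count table, and all 10 passed the filter on low counts together with 13599 genes in all.

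Poly(A) RNA was sequenced in 15 libraries, 3 from each of 5 human lines. ARPE19, an established retinal pigment epithelial line, was not transfected. The line T53D4 was made from it with 2 plasmids, pbabe-hTERT+p53DD (telomerase and a fragment that blocks p53) and pbabe-cyclinD1+CDK4R24C (cyclin D1 and a CDK4 mutant). RasV12, MekDD and AKTmyr carry both of these and 1 more each, namely pWZL-H-RasV12 (active H-RAS), pBabe-Puro-MEK-DD (active MEK) or pBabe-myr-HA-Akt (membrane-bound AKT). All were grown adherently in serum-containing medium. By their labels RasV12 and AKTmyr are transformed and MekDD is weakly so, while the first 2 lines are not. Every library came from its own freshly thawed vial, so the spread covers vials and cultures. There is 1 line per construct, so no comparison covers independently made lines.

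WNT ligands are secreted, lipid-modified proteins that bind frizzled receptors. In the canonical branch, the frizzled receptor acts with LRP5 or LRP6 to halt the destruction complex. Beta-catenin then builds up and acts with TCF/LEF factors on target genes, AXIN2 and LEF1 among them. WNT5A and WNT5B are best known for signalling without beta-catenin. SFRP proteins resemble the ligand-binding part of frizzled receptors and can bind WNT in the medium, whereas DKK1 binds the LRP co-receptors. In the eye, WNT signals take part in patterning the optic cup and its pigment epithelium.

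Upstream sequences are shown for SFRP4 and WNT5B, the 2 of the 10 members called lower in RasV12 than in T53D4, and for DKK1, the member whose window held a TCF/LEF core. RefSeq start sites on GRCh38.p14 were matched for 5 of the 10 members (WNT5A, WNT5B, LEF1, SFRP4 and DKK1), at 7 start sites. Each sequence below is the 250 bases before a start site, 5′ to 3′ on the gene's strand, and lies outside annotated exons. They are chr7:37916818-37917067 on the minus strand for SFRP4, chr12:1628981-1629230 on the plus strand for WNT5B and chr10:52314031-52314280 on the plus strand for DKK1. Capitals mark CTTTGA, the core that TCF/LEF factors bind, or its reverse complement.
SFRP4: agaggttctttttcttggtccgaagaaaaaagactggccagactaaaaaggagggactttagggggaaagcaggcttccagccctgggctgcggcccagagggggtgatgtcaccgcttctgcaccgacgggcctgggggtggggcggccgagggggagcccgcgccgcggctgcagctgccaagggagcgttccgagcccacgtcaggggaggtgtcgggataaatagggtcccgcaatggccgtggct
WNT5B: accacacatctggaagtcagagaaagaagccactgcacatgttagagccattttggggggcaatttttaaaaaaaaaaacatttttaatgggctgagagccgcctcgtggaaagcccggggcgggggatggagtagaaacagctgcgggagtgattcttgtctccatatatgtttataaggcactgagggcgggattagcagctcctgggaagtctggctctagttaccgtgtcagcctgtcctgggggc
DKK1: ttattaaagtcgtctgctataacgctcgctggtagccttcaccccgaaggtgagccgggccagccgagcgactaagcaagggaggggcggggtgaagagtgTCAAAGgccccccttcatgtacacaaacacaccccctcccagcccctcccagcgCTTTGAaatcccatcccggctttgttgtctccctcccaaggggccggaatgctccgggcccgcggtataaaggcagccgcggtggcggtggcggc
Both strands of each window, 250 bases before to 50 after the start, were searched. CTTTGA was found in 12.9% of 35116 RefSeq windows and in 1 of the 7 member windows. In DKK1 it lay at -149 on the minus strand and at -95 on the plus strand, counted from the start site. The AP-1 motif TGANTCA, in 7.71% of all windows, was in 0 of the 7, so the motifs did not overlap there. These are letter matches in 1 window per start site, and the start site used in these lines was not measured.

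Reads on genes ranged from 20.63 to 46.55 M per library. They followed the library number, with 27.39 to 37.98 M in libraries numbered 1, 36.95 to 46.55 M in those numbered 2 and 20.63 to 24.05 M in those numbered 3. CPM below are counts per M reads after trimmed-mean (TMM) scaling, given as mean ± SD over n = 3 libraries. Rows for the constructs checked the labels. The HRASV12, MEKDD and AKT rows were highest in the line labelled with them. The TERT and p53DD rows were at 879 ± 147 and 70.7 ± 20.1 CPM in the libraries labelled T53D4 against 17 reads and 1 read in ARPE19. The CCND1 and CDK4 rows, which ARPE19 reads also reach, were at 146 ± 32.1 and 92.2 ± 11.8 CPM in T53D4 and at 193 ± 41.6 and 70.7 ± 12 CPM in ARPE19. The second plasmid of the libraries labelled T53D4 is therefore not visible in these rows, and T53D4 below means those libraries, also where a direction is drawn from them. In MekDD the same rows were at 270 ± 57.6 and 142 ± 13.7 CPM, but in RasV12 at 2350 ± 121 and 2380 ± 23.3 CPM and in AKTmyr at 858 ± 132 and 1010 ± 90.1 CPM. MekDD thus lay nearer to ARPE19 than to RasV12 or AKTmyr, and its second plasmid is not clearly visible either. In each comparison of RasV12 or AKTmyr with T53D4, ARPE19 or MekDD, the level of these 2 rows and the oncogene therefore cannot be told apart. The same holds for RasV12 against AKTmyr. It also holds for MekDD against T53D4 in both rows and against ARPE19 in the CDK4 row, at smaller differences. The TERT and p53DD rows of MekDD were at 454 ± 58.2 and 32.3 ± 8.36 CPM, below those of T53D4. In RasV12 they were at 1240 ± 66.4 and 111 ± 12.4 CPM, above all other lines. AKTmyr, at 633 ± 175 and 58.4 ± 20.1 CPM, overlapped T53D4 and MekDD within SD. The level of these rows likewise cannot be told apart from the oncogene in comparisons of RasV12, in MekDD against T53D4, and in any oncogene line against ARPE19. Of 10 pigment epithelium markers, 9 were in the table and 6 or 7 reached 1 CPM in each line, while RPE65 was at 0 reads in ARPE19 and T53D4 and at most 0.101 CPM elsewhere. COL1A1 was the sole fibroblast marker above 1 CPM, and the 5 fibroblast markers summed to 2.12 to 29.6 CPM in ARPE19 and 2.86 to 112 CPM in T53D4. The sums were 3.45 to 9.82 CPM for RasV12, 3.08 to 34 CPM for MekDD and 14 to 337 CPM for AKTmyr. Their part in the results was not tested.

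Against T53D4, the SFRP1 antagonist rose in RasV12 and MekDD and fell in AKTmyr. The SFRP4 antagonist and the WNT5B ligand fell in RasV12, to 8 reads over 3 libraries and to 0.908 ± 0.567 CPM. In AKTmyr, LEF1 fell and AXIN2 rose, the latter with a call that 8 of 23 other settings did not keep. The edgeR quasi-likelihood test over all 15 libraries called a gene when its Benjamini-Hochberg adjusted p over 13599 genes was under 0.05. In RasV12 against T53D4 it called 1 member higher and 2 lower, where 24.4% of all genes tested were called (10.8% higher and 13.6% lower). In MekDD against T53D4 it called 1 member higher and 0 lower, where 5.1% of all genes were called (2.27% and 2.83%). In AKTmyr against T53D4 it called 1 higher and 2 lower, where 20.1% were called (9.91% and 10.2%). With 10 members, these counts lie near their background in this fit. In the model with the replicate number as a block, 6, 3 and 7 members were called in these comparisons. The share of all genes called there was 35.8%, 11.7% and 34.8%. The median log2 fold change of the members was 0.4, 0.31 and -0.38 in these comparisons, against 0.01, 0 and -0.01 over all genes. In bulk RNA, fewer cells with a transcript and less transcript per cell cannot be told apart.

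T53D4 did not differ from ARPE19 in any member by the edgeR test, where 0.154% of all genes were called (0.0368% higher and 0.118% lower). The DESeq2 test and the model with the replicate number as a block called 0 members there as well. At an unadjusted p under 0.05, 2 members passed, SFRP1 (log2 fold change -0.87) and LEF1 (0.92), and in both the libraries of the 2 lines did not overlap. Among all genes, 8.04% had every T53D4 library higher and 8.57% every T53D4 library lower than those of ARPE19. With 10 members, the 2 without overlap lie near this background. The share of all genes at an unadjusted p under 0.05 was not counted. The 2 members passing that threshold therefore cannot be read against a background.

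**Figure D1:**
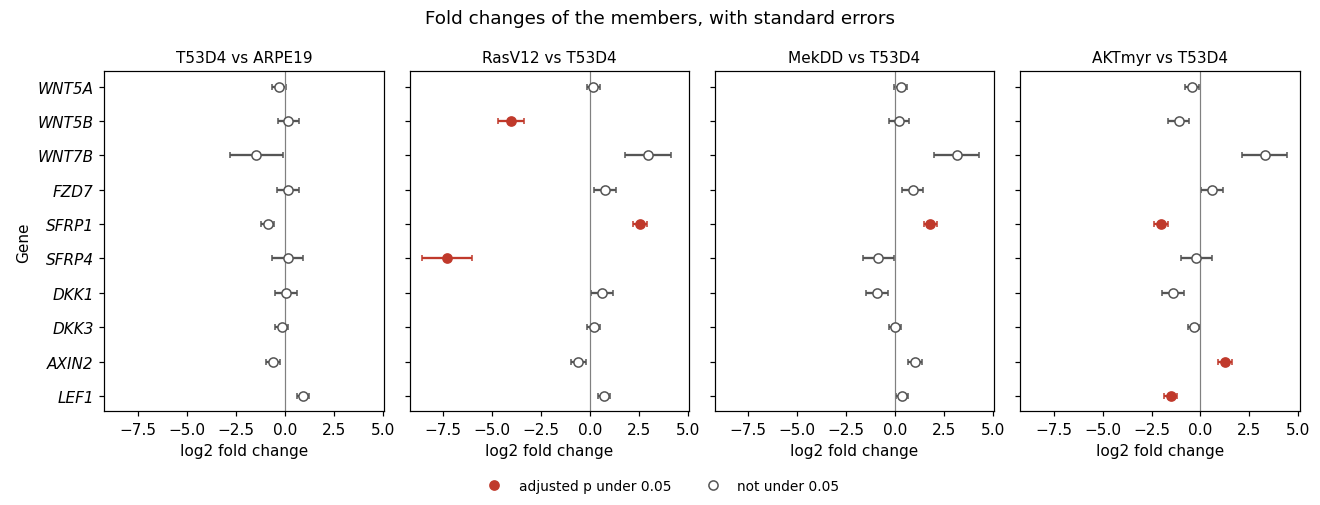
Log2 fold change (x axis) of each member (y axis) with its standard error, in 4 comparisons. Filled points have an adjusted p under 0.05: 0 members in T53D4 against ARPE19, 3 in RasV12, 1 in MekDD and 3 in AKTmyr against T53D4.

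WNT5B, a ligand that signals mainly without beta-catenin, was lowest in RasV12. The T53D4 libraries numbered 1, 2 and 3 held 25.9, 9.5 and 8.24 CPM, and the RasV12 libraries 1.53, 0.426 and 0.765 CPM. MekDD held 26.8, 14.8 and 8.11 CPM, AKTmyr 7.65, 8.7 and 3.58 CPM, and ARPE19 19.2, 10.2 and 9.08 CPM. Each RasV12 library lay below every library of the other lines. The level in RasV12 was 16.4-fold lower than in T53D4 (log2 fold change -4.04, SE 0.65, edgeR adjusted p = 0.000463). It was -3.31 without T53D4 replicate 1 and -4.66 without RasV12 replicate 1, and it stayed called in both. RasV12 also lay below MekDD (log2 -4.23, adjusted p = 0.000614), AKTmyr (log2 -2.92, adjusted p = 0.00255) and ARPE19 (log2 -3.86, adjusted p = 0.000583), and without RasV12 replicate 1 these were -4.86, -3.54 and -4.49. MekDD and T53D4 overlapped, with a log2 difference of 0.19 and a 95% interval from -0.85 to 1.24. AKTmyr lay at a log2 fold change of -1.12 against T53D4 (adjusted p = 0.164). The replicate block gave -0.97 there (adjusted p = 0.021), and it called AKTmyr below ARPE19 (log2 -0.89, adjusted p = 0.0352) and MekDD above AKTmyr (log2 1.19, adjusted p = 0.00613). WNT5B (ENSG00000111186) lies on the plus strand of chr12:1529891-1647212 on hg38. Its span overlaps FBXL14 on the other strand with 0 shared exon bases, and FBXL14 stood at 16.9 ± 1.85 CPM in RasV12 and 14.6 ± 4 CPM in T53D4.

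WNT5A, the close relative of WNT5B, was detected in every library. The means were 24.1 ± 7.57 CPM in ARPE19, 23.8 ± 10.1 in MekDD, 22.1 ± 4.25 in RasV12, 19.7 ± 7.98 in T53D4 and 14.6 ± 4.38 in AKTmyr. No 2 neighbours in this order differed beyond their spread, and the edgeR test called WNT5A in 0 of 10 comparisons. In RasV12, where WNT5B fell, WNT5A held 21.5, 18.2 and 26.7 CPM against 28.6, 13.1 and 17.4 CPM in T53D4, a log2 difference of 0.17 (95% interval -0.5 to 0.84). With the block, AKTmyr was called below ARPE19 (log2 -0.71, adjusted p = 0.0114) and below MekDD (log2 of MekDD over AKTmyr 0.67, adjusted p = 0.0119). WNT5A (ENSG00000114251) lies on the minus strand of chr3:55465715-55490539.

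WNT7B, a ligand of the canonical branch, was close to the limit of detection. Over the 3 libraries of a line it had 2 reads in T53D4 and 6 in ARPE19. AKTmyr had 23 reads, MekDD 20 and RasV12 17, and its highest library reached 0.458 CPM. The ratio of AKTmyr to T53D4 was 10.4 with an exact 95% interval from 2.57 to 91.1. For MekDD and RasV12 it was 10.1 (2.46 to 89.4) and 8.91 (2.11 to 79.5). These intervals cover counting error only. WNT7B passed the filter on low counts through oncogene lines alone, with 0.402 CPM in RasV12 library 1, 0.374 in MekDD library 1 and 0.458 in AKTmyr library 3. No ARPE19 or T53D4 library exceeded 0.117 CPM, so the ratios to T53D4 are not independent of that filter. The edgeR test called WNT7B in none of AKTmyr, MekDD and RasV12 against T53D4 (adjusted p = 0.057, 0.157 and 0.083). AKTmyr was called with the block (log2 3.24, adjusted p = 0.0351) and by DESeq2 (log2 3.58, adjusted p = 0.0487). It was also called without ARPE19 replicate 2 or without RasV12 replicate 1 (edgeR adjusted p = 0.0461 and 0.045). WNT7B (ENSG00000188064) lies on the minus strand of chr22:45920366-45977162.

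**Figure D2:**
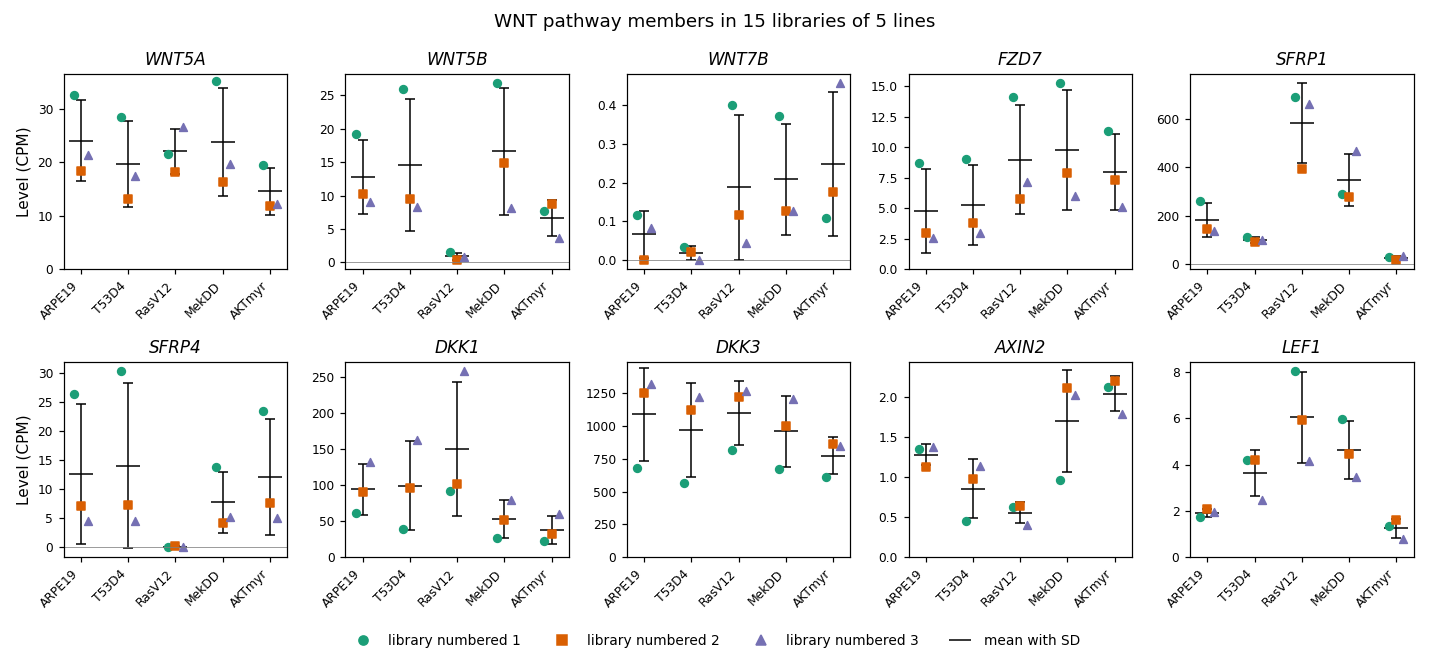
Level (CPM, y axis) of the 10 members in each of the 15 libraries by line (x axis), with the mean and SD over 3 libraries. Symbols give the library number. SFRP1 is at 393 to 693 CPM in RasV12 and 15.1 to 33 CPM in AKTmyr, and the SFRP4 and WNT5B points of RasV12 lie near 0.

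FZD7, a frizzled receptor, was highest in the library numbered 1 of each line. ARPE19 held 8.73, 2.95 and 2.54 CPM in libraries 1, 2 and 3, and T53D4 held 9, 3.82 and 2.95 CPM. The values were 14.1, 5.79 and 7.11 CPM in RasV12, 15.3, 7.91 and 6 CPM in MekDD and 11.3, 7.35 and 5.13 CPM in AKTmyr. Compared as groups the lines overlapped, and the edgeR test called FZD7 in 0 of 10 comparisons. Compared within a number, each of the 3 oncogene lines lay above T53D4 and ARPE19 in all 3 numbers. The check described below did not pair RasV12 with ARPE19 by number, and the share of all genes ordered in this way was not counted. With the block, FZD7 was called higher than in T53D4 in RasV12 (log2 0.83, adjusted p = 0.0049), MekDD (log2 0.94, adjusted p = 0.00735) and AKTmyr (log2 0.69, adjusted p = 0.0149). It was also called above ARPE19 in MekDD (log2 1.13, adjusted p = 0.00176) and AKTmyr (log2 0.88, adjusted p = 0.00476). FZD7 (ENSG00000155760) lies on the plus strand of chr2:202034587-202038445.

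SFRP1, a secreted WNT binder, was highest in RasV12 and lowest in AKTmyr. Its libraries 1, 2 and 3 held 693, 393 and 665 CPM in RasV12 and 289, 277 and 470 CPM in MekDD. ARPE19 held 262, 143 and 138 CPM, T53D4 held 111, 88.9 and 97.8 CPM, and AKTmyr held 26.2, 15.1 and 33 CPM. The AKTmyr libraries lay below, and the RasV12 and MekDD libraries above, every T53D4 library. Against T53D4, SFRP1 was 5.87-fold higher in RasV12 (log2 2.55, SE 0.34, adjusted p = 0.000107). In MekDD it was 3.48-fold higher (log2 1.8, SE 0.33, adjusted p = 0.00505). In AKTmyr it was 4.02-fold lower (log2 -2.01, SE 0.34, adjusted p = 0.00146). The MekDD call was lost without the libraries numbered 2 (adjusted p = 0.0692) and without those numbered 3 (adjusted p = 0.0717). The RasV12 level was 23.6-fold and the MekDD level 14-fold that of AKTmyr (adjusted p = 1.4e-06 and 1.06e-05). Against ARPE19, RasV12 was 3.22-fold higher and AKTmyr 7.32-fold lower (adjusted p = 0.00172 and 0.000138). In the order RasV12, MekDD, ARPE19, T53D4 and AKTmyr, the edgeR test separated 1 neighbouring pair, T53D4 and AKTmyr. With the block it also separated RasV12 from MekDD (log2 0.73, adjusted p = 0.0415) and MekDD from ARPE19 (log2 0.94, adjusted p = 0.0164), but not T53D4 from ARPE19 (log2 -0.84, adjusted p = 0.0925). SFRP1 carries the identifier ENSG00000104332.

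SFRP4, a relative of SFRP1, moved the other way in RasV12. Its 3 RasV12 libraries had 1, 6 and 1 reads, against 884, 332 and 94 reads in T53D4. In CPM these were 0.0365, 0.142 and 0.045 against 30.3, 7.2 and 4.48. Each RasV12 library lay far below every library of the other lines, the lowest of which was the MekDD library numbered 2 with 4.07 CPM. The ratio of T53D4 to RasV12 was 156 with an exact 95% counting interval from 79.1 to 363 (log2 fold change -7.3, SE 1.26, adjusted p = 0.00084). The log2 value was -6.03 without T53D4 replicate 1 and -8.3 without RasV12 replicate 2, called in both, so the size of the fold rests on single libraries. RasV12 lay below MekDD, AKTmyr and ARPE19 as well, by ratios of 87.5, 144 and 151 (log2 -6.43, -7.08 and -7.15, adjusted p = 0.0035, 0.000651 and 0.000868). Without RasV12 replicate 2 the log2 values were -7.44, -8.09 and -8.16, and without replicate 1 of the other line -5.69, -6.16 and -6.01. MekDD held 13.8, 4.07 and 5.16 CPM, AKTmyr 23.5, 7.55 and 5 CPM, and ARPE19 26.3, 7.04 and 4.46 CPM. These 3 lines and T53D4 overlapped one another, and no pair of them was called with or without the block. SFRP4 (ENSG00000106483) lies on the minus strand of chr7:37905932-38025695. EPDR1 overlaps its span on the other strand with 0 shared exon bases, and stood at 37.7 ± 5.8 CPM in RasV12 and 80.6 ± 6.7 CPM in T53D4.

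DKK1, the LRP-binding antagonist whose upstream window holds the TCF/LEF core in both orientations, was lowest in library 1 and highest in library 3 of every line. T53D4 libraries 1, 2 and 3 held 38.7, 96 and 162 CPM, ARPE19 60.5, 90 and 131 CPM, and RasV12 92, 101 and 258 CPM. MekDD held 26.4, 51.1 and 79.2 CPM, and AKTmyr 21.9, 32 and 59 CPM. Within each number RasV12 was the highest line and AKTmyr the lowest, though the check described below did not pair these 2 lines by number. RasV12 was 3.99-fold above AKTmyr (log2 2, SE 0.58, adjusted p = 0.0136). That call was lost without the RasV12 library numbered 3 (log2 1.36, adjusted p = 0.0744) and without the AKTmyr library numbered 1 (adjusted p = 0.06). The edgeR test called DKK1 in no other comparison. With the block, AKTmyr was called below T53D4 (log2 -1.31, adjusted p = 0.000351) and below ARPE19 (log2 -1.38, adjusted p = 0.00026). MekDD was called below T53D4 (log2 -0.85, adjusted p = 0.0107), ARPE19 (log2 -0.92, adjusted p = 0.00457) and RasV12 (log2 of RasV12 over MekDD 1.51, adjusted p = 0.000109). RasV12 was called above T53D4 (log2 0.66, adjusted p = 0.0146). That last value was -0.03 in the fit without the block and without the RasV12 library numbered 3. DKK1 (ENSG00000107984) lies on the plus strand of chr10:52314281-52318042.

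DKK3, a secreted relative of DKK1 that is not a classical LRP ligand, was the most abundant member in CPM. Its means were 1100 ± 246 CPM in RasV12, 1090 ± 354 in ARPE19, 970 ± 357 in T53D4, 961 ± 270 in MekDD and 774 ± 141 in AKTmyr. The lines overlapped, and the edgeR test called DKK3 in 0 of 10 comparisons. With the block, AKTmyr was called below ARPE19 (log2 -0.44, adjusted p = 0.0193). DKK3 (ENSG00000050165) lies on the minus strand of chr11:11956207-12009769, and 5681 of its 11958 exon bases are shared with USP47 on the other strand. Strand use in the counting was not stated in the sources used here, so part of either gene's reads may have been lost or shared. USP47 stood at 53.4 ± 1.52 CPM in T53D4 and 73 ± 3.99 CPM in AKTmyr.

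AXIN2, a scaffold of the destruction complex and a widely used target gene of beta-catenin, was low in every line. AKTmyr libraries 1, 2 and 3 held 2.13, 2.2 and 1.79 CPM and T53D4 libraries 0.445, 0.976 and 1.14 CPM. RasV12 held 0.621, 0.638 and 0.405 CPM, MekDD 0.966, 2.11 and 2.03 CPM, and ARPE19 1.35, 1.13 and 1.37 CPM. The AKTmyr libraries lay above all those of T53D4, RasV12 and ARPE19. AXIN2 was 2.4-fold higher in AKTmyr than in T53D4 (log2 1.26, SE 0.36, adjusted p = 0.0249). The call was lost in 4 of the fits that left out 1 library, with adjusted p = 0.0818 and 0.0502 without T53D4 replicates 1 and 2, and 0.0627 and 0.0605 without AKTmyr replicates 1 and 2. It was also lost with the 2 lines alone (adjusted p = 0.0682) and without all libraries numbered 1, 2 or 3 (adjusted p = 0.0671, 0.211 and 0.0669), and so in 8 of 23 settings. RasV12 was 3.63-fold below AKTmyr (adjusted p = 0.00149), 3.01-fold below MekDD (adjusted p = 0.0106) and 2.27-fold below ARPE19 (adjusted p = 0.0284). The difference from ARPE19 was lost without any 1 of the RasV12 libraries or without ARPE19 replicate 1 or 3, with adjusted p between 0.0548 and 0.0881. MekDD lay at a log2 difference of 1 from T53D4, which missed the threshold (adjusted p = 0.152). AXIN2 (ENSG00000168646) lies on the minus strand of chr17:65528563-65561648 and shares 1316 of its 5227 exon bases with AC004805.1 on its own strand.

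LEF1, a nuclear partner of beta-catenin and itself a target gene, had its highest mean in RasV12 and its lowest in AKTmyr, and AXIN2 the reverse. No neighbours in either order of the 5 lines were separated by the edgeR test (adjusted p from 0.24 to 0.652). Libraries 1, 2 and 3 held 8.07, 5.91 and 4.14 CPM in RasV12, 5.98, 4.45 and 3.47 CPM in MekDD and 4.18, 4.21 and 2.48 CPM in T53D4. ARPE19 held 1.73, 2.07 and 1.96 CPM, and AKTmyr held 1.35, 1.61 and 0.792 CPM. The AKTmyr libraries lay below all others. LEF1 was 2.86-fold lower in AKTmyr than in T53D4 (log2 -1.52, SE 0.32, adjusted p = 0.00608), a call lost without the libraries numbered 2 (log2 -1.6, adjusted p = 0.111). RasV12 and MekDD were 4.75-fold and 3.65-fold above AKTmyr (adjusted p = 0.000148 and 0.00118). They were 3.15-fold and 2.41-fold above ARPE19 (adjusted p = 0.00161 and 0.0216). The last of these was lost without ARPE19 replicate 1 or 2 or MekDD replicate 1 or 2 (adjusted p = 0.0821, 0.062, 0.0919 and 0.0571). RasV12 lay above T53D4 by a log2 difference of 0.73 (adjusted p = 0.103), which the block called (adjusted p = 0.0176). LEF1 (ENSG00000138795) lies on the minus strand of chr4:108047545-108168956.

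Over all 5 lines at once, a test of any difference called 5 of 10 members, WNT5B, SFRP1, SFRP4, AXIN2 and LEF1, where 46.1% of all genes were called. Between oncogene lines, RasV12 against AKTmyr gave 3 members higher and 3 lower, where 40.4% of genes were called (19.6% higher and 20.7% lower). RasV12 against MekDD gave 0 higher and 3 lower, where 15.5% were called (7.17% and 8.33%). MekDD against AKTmyr gave 2 higher, SFRP1 and LEF1, and 0 lower, where 26.2% were called (12.7% and 13.5%). Against ARPE19, RasV12 had 2 members higher and 3 lower, where 30.7% of genes were called (14.4% and 16.2%). MekDD had 1 higher and 0 lower, where 10.9% were called (4.61% and 6.27%). AKTmyr had 0 higher and 1 lower, where 16.8% were called (7.98% and 8.86%). The comparisons that share a line share its libraries and are not independent.

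Lines were also compared by whether their libraries overlapped. Against T53D4, 4 members did not overlap in RasV12, where 19.6% of all genes lay wholly higher and 20.5% wholly lower. In MekDD it was 2 members (11.4% and 12.6% of genes), and in AKTmyr 4 members (17% and 18.5%). Between oncogene lines, 4 members did not overlap in RasV12 against MekDD (16.7% and 17.6%). There were 6 in RasV12 against AKTmyr (24.1% and 24.3%) and 2 in MekDD against AKTmyr (20.2% and 19.3%). Against ARPE19 the count was 5 for RasV12 (21.6% and 22.7%). It was 3 for MekDD (15.2% and 15.5%) and 5 for AKTmyr (15.2% and 16.7%).

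Several members differed between libraries of a line in a way that recurred across lines. DKK1 and DKK3 were lowest in library 1 in 5 of 5 lines, and DKK1 was highest in library 3 in 5 of 5. FZD7 was highest in library 1 in 5 of 5 lines, and SFRP4, WNT5B and WNT5A in 4 of 5. In a model with both line and number, SFRP4 was lower by a log2 of -1.77 in number 2 and -2.19 in number 3 than in number 1 (edgeR adjusted p = 0.00029). DKK1 differed by 0.7 and 1.53 (adjusted p = 0.000278), FZD7 by -1.12 and -1.36 (adjusted p = 0.000329) and DKK3 by 0.7 and 0.8 (adjusted p = 0.000596). WNT5B, WNT5A, LEF1 and SFRP1 passed the same test (adjusted p = 0.00387, 0.00397, 0.0338 and 0.0494), and AXIN2 and WNT7B did not (adjusted p = 0.468 and 0.313). Over all genes, 30.5% differed among the numbers. Depth moved with the number too, as given above, and its part was not tested. The labels name no shared day or batch for a number.

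**Figure D3:**
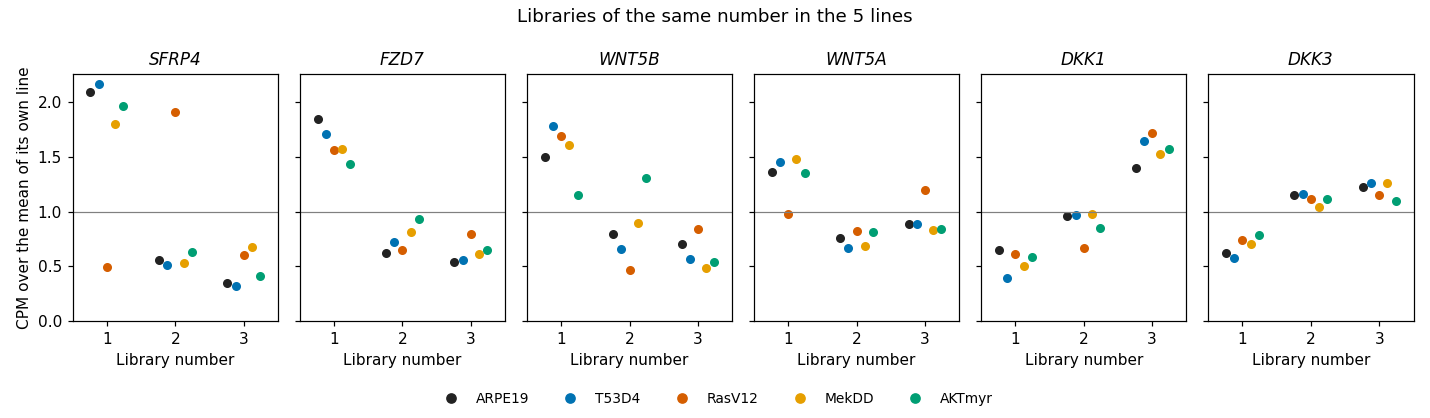
Level of 6 members in each library divided by the mean of its own line (y axis, ratio of CPM), by library number (x axis) and line (colour). FZD7 is highest in number 1 in 5 of 5 lines, and DKK1 is lowest in number 1 and highest in number 3 in 5 of 5 lines.

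Levels of different genes were compared per length, as reads per kilobase of merged exons and M reads (RPKM). DKK3 had the highest mean of the members in 4 lines, at 90.8 ± 29.6 RPKM in ARPE19, 81.1 ± 29.8 in T53D4, 80.3 ± 22.6 in MekDD and 64.7 ± 11.8 in AKTmyr. In MekDD it overlapped within SD with SFRP1 at 73 ± 22.8 RPKM, and in T53D4 with DKK1 at 44.5 ± 27.7 RPKM. In RasV12, SFRP1 stood first with 123 ± 35 RPKM, then DKK3 with 92.3 ± 20.6 and DKK1 with 67.6 ± 41.9, which overlap within their SD. DKK3 reads may have been lost or shared over the exon bases common with USP47, as given above, so its place in these orders is uncertain. The 3 ligands were much lower than DKK3 and DKK1 in each line. They reached at most 3.26 ± 1.02 RPKM for WNT5A in ARPE19 and 3.91 ± 2.23 RPKM for WNT5B in MekDD. The SFRP4 antagonist was also low, with at most 3.99 ± 4.04 RPKM in T53D4 and 0.0212 ± 0.0167 RPKM in RasV12. SFRP1 was at 5.24 ± 1.9 RPKM in AKTmyr. In RasV12, WNT5A remained at 2.99 ± 0.574 RPKM, with WNT5B at 0.214 ± 0.134 RPKM. FZD7 lay between 1.23 and 2.53 RPKM, LEF1 between 0.233 and 1.13 RPKM and AXIN2 between 0.106 and 0.391 RPKM over the 5 line means.

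The rest of the pathway was followed in lists by role, written from textbook membership with earlier results of these data known. The lists held 97 genes, of which 78 were in the table and 68 were tested. Against T53D4, RasV12 had 10 of the 68 called higher and 22 lower, MekDD had 2 (FZD8 and FRZB) and 2 (APCDD1 and VANGL2), and AKTmyr had 7 and 6. T53D4 against ARPE19 had 0 and 0, also with the block. The median log2 fold change of the 68 was -0.09 in RasV12, 0.01 in MekDD and 0.07 in AKTmyr. In percent of the 68, the calls were 47.1 in RasV12, 5.88 in MekDD and 19.1 in AKTmyr, beside 24.4, 5.1 and 20.1 over all genes. With the block, RasV12 had 13 higher and 24 lower, where 35.8% of all genes were called. MekDD then had 7 and 5 (11.7% of all genes), and AKTmyr had 11 and 13 (34.8%).

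The receptors and co-receptors had 2 called higher, FZD8 and FZD3, and 8 lower of 14 in RasV12. Over all genes, 10.8% were called higher and 13.6% lower in RasV12 against T53D4. The role lists are small, were written with earlier results known, and were not tested as sets. FZD8, a frizzled receptor, was at 54.4 ± 8.47 CPM in RasV12 and 40.3 ± 3.33 CPM in MekDD against 7.04 ± 2.36 CPM in T53D4 (log2 2.95 and 2.51, adjusted p = 5.78e-07 and 4.85e-06). In AKTmyr it was at 2.06 ± 0.157 CPM (log2 -1.77, adjusted p = 0.000132). SFRP1, as given above, was called in the same direction in each of these comparisons. The LRP5 and LRP6 co-receptors were lower in RasV12 (log2 -1.23 and -0.62, adjusted p = 0.0022 and 0.00946), as were ROR1 and ROR2, receptors for WNT5A (log2 -2.95 and -1.69, adjusted p = 8.22e-06 and 0.00197). These 4 and FZD3 were named after their values were seen.

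Among the other 5 ligands tested, 2 were lower in RasV12, WNT2B and WNT9A, and 0 higher, where 13.6% and 10.8% of all genes were called. WNT2B fell from 38.5 ± 10.7 to 1.62 ± 0.824 CPM (log2 -4.62, adjusted p = 0.000964). PORCN, the enzyme that adds the lipid to WNT ligands, rose from 14.4 ± 0.64 to 36.5 ± 12.5 CPM in RasV12 (log2 1.34, adjusted p = 0.000235). Of the planar polarity components, 5 of 9 were lower in RasV12 and 1 higher, beside the same shares of all genes. VANGL2, a core member of that branch, fell from 9.42 ± 2.91 CPM in T53D4 to 0.0508 ± 0.0179 in RasV12 (log2 -7.35, adjusted p = 7.01e-07) and to 0.891 ± 0.439 in MekDD (log2 -3.43, adjusted p = 9.77e-05). APCDD1, a membrane antagonist, had 298 reads in T53D4 and 1 read in RasV12, a ratio of 284 with an exact 95% interval from 50.7 to 11300. It was lower in MekDD and AKTmyr too (log2 -4.21 and -4.22, adjusted p = 0.00374 and 0.00175). No library of RasV12 exceeded 0.0365 CPM and none of AKTmyr 0.242 CPM. APCDD1 passed the filter on low counts mainly through ARPE19 and T53D4, so these falls are not independent of that filter. TCF7, a nuclear partner related to LEF1, rose from 17.7 ± 2.98 to 40.2 ± 8.18 CPM in RasV12 (log2 1.18, adjusted p = 0.00126).

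In AKTmyr the largest rise was that of FRZB, a secreted antagonist of the SFRP family. It went from 0.134 ± 0.0491 CPM in T53D4 to 3.23 ± 1.9 CPM (log2 4.61, adjusted p = 0.000337), while SFRP1 fell. T53D4 held 12 FRZB reads over its 3 libraries, at most 0.19 CPM in a library. FRZB passed the filter on low counts through other lines, so its rises against T53D4 are not independent of that filter. LGR4, an R-spondin receptor, rose from 39.4 ± 3.18 to 131 ± 39.5 CPM (log2 1.74, adjusted p = 6.28e-05). PRICKLE2, a planar polarity component, rose to 38.3 ± 7.99 CPM (log2 1.34, adjusted p = 0.000632) and DAAM2 fell to 42.3 ± 12.3 CPM (log2 -1.24, adjusted p = 0.0376). Of 6 beta-catenin target genes beside AXIN2 and LEF1, APCDD1 was the 1 called in MekDD and in AKTmyr, lower in both. Over all genes, 2.83% and 10.2% were called lower in these lines. RasV12 had 1 higher, TCF7, and 2 lower, APCDD1 and TNFRSF19, where 10.8% and 13.6% of all genes were called. WNT9A, TNFRSF19 and FRZB in MekDD were named after their values were seen.

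**Figure D4:**
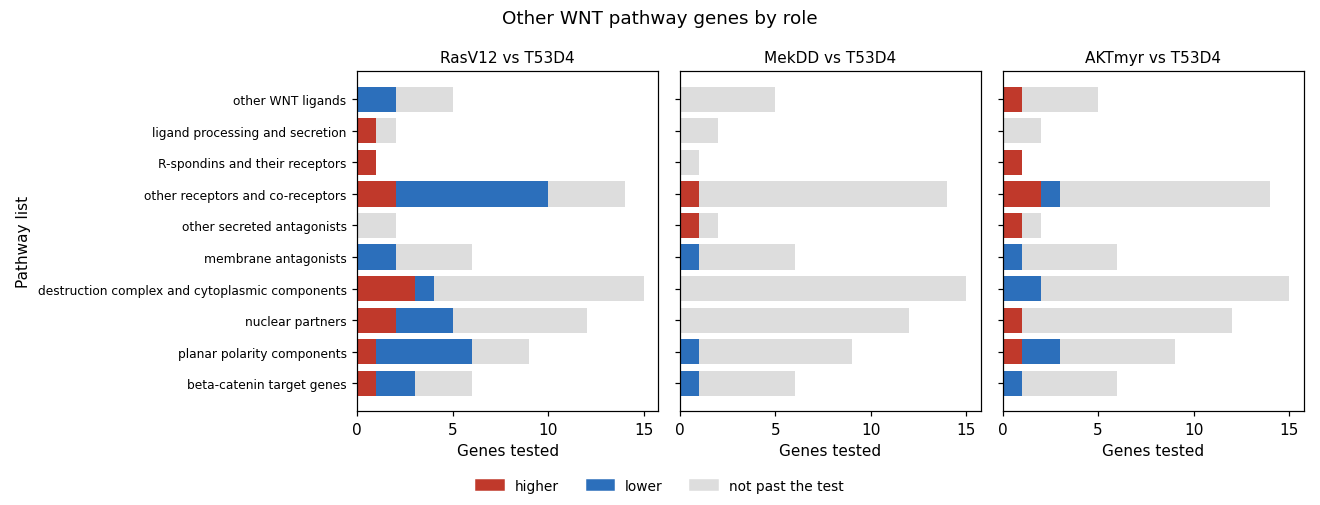
Number of tested pathway genes (x axis) in each role list (y axis) called higher, lower or neither against T53D4, in 3 lines. Among 14 receptors and co-receptors, RasV12 has 2 higher and 8 lower, and 1 gene may stand in more than 1 list. Over all genes, 10.8% were called higher and 13.6% lower in RasV12.

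The gene outside the 10 members whose level ran most like each member was sought by Pearson's r of log2 CPM over the 15 libraries. These libraries share lines, numbers and depth, so the values describe this set. SFRP1 ran most like VAT1L (r = 0.96), which was at 32.8 CPM in RasV12, 17 in MekDD and 0.173 in AKTmyr. SFRP4 ran most like TTC9 (r = 0.97) and WNT5B most like LBH (r = 0.97). LBH was at 532 CPM in T53D4 and 54.5 CPM in RasV12, and TTC9 at 52.9 and 5.52 CPM. LEF1 was nearest to UBALD2 (r = 0.95), AXIN2 to LRRC17 (r = 0.91), FZD7 to KIFC2 (r = 0.93) and WNT5A to RUNX1 (r = 0.89). DKK1 was nearest to GALNT12 (r = 0.9) and DKK3 to CCDC51 (r = 0.93). WNT7B was below 1 CPM in every line and was left out.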

How the data were processed

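Directional poly(A) libraries were sequenced on 15 samples, 3 from each of 5 lines, and grouped by the sample labels. The authors deposited raw read counts per gene, which were the values tested. The submitters' processing notes name hg38 and, without role or setting, HISAT2 2.1.0 and fastp 0.20.0, DESeq2 1.28.1, SAMtools 1.9 and featureCounts 1.6.4, and also deepTools 3.2.0. The deposited normalised and log tables were not used. The smallest row total is 10 reads, and 7 of 15517 rows are construct sequences, left out of the fit and the library sizes. Exon lengths, positions and overlaps came from the deposited hg38 annotation.

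Low genes were removed by filterByExpr with line as the group (minimum count 10). The test was edgeR 4.0.16 (R 4.3.3; TMM factors, glmQLFit and glmQLFTest) with line as the factor over all 15 libraries, and 10 comparisons were drawn. P-values were adjusted by the Benjamini-Hochberg method over 13599 genes. The SE was computed from the fold change and its F statistic. Exact 95% intervals of read ratios cover counting error only. The scripts were tested on simulated data. The alternatives were DESeq2 1.42.0, RLE factors, no filter, the replicate number as a block, the 2 lines alone, and each library left out. Leaving out all libraries of 1 number was added after seeing the data.

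The labels number the replicates alike in each line and name no shared day. Pairing was read per comparison, from the correlation of deviations from the line means of same-numbered libraries. It was over 0.1 in all 3 pairs in 8 comparisons. In RasV12 against AKTmyr and RasV12 against ARPE19 the lowest was 0.02, so block values for these 2 stand only in the closing section. Over all 30 same-number pairs the range was 0.02 to 0.77. The choice to read the rule per comparison was made after block results had been seen.

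The named genes are the 10 members, up to 3 rises and 3 falls of the pathway lists per comparison (called, at least 1 CPM in the higher line, no overlap between replicates), and 1 pattern neighbour per member (at least 5 CPM in its highest line, prior count 2). Members and lists were chosen with earlier results of these data known. No protein sequence was used here.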

Additional observations from a re-analysis of the deposited data

Results flagged for a closer look

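RasV12, MekDD and AKTmyr were each compared with the same T53D4 libraries, so the gap between 2 of these differences equals the direct comparison of the 2 lines, which the edgeR test made. The lines also differ in the CCND1 and CDK4 construct rows, and RasV12 differs from MekDD and AKTmyr in the TERT and p53DD rows, as given above. The comparison passed for 11 member values (edgeR quasi-likelihood, Benjamini-Hochberg adjusted p under 0.05). Between RasV12 and MekDD, the log2 differences from T53D4 were apart by -4.23 for WNT5B, -6.43 for SFRP4 and -1.59 for AXIN2. Between RasV12 and AKTmyr, they were apart by -2.92 for WNT5B, 4.56 for SFRP1, -7.08 for SFRP4, 2 for DKK1, -1.86 for AXIN2 and 2.25 for LEF1. Between MekDD and AKTmyr, they were apart by 3.8 for SFRP1 and 1.87 for LEF1. In each of the 11, the 3 libraries of one line lay on 1 side of all 3 of the other. The test on the same libraries picked these 11, so their separation adds no support. Over all genes, 15.5% were called in RasV12 against MekDD, 40.4% in RasV12 against AKTmyr and 26.2% in MekDD against AKTmyr. Libraries lay wholly higher or wholly lower in 16.7% and 17.6%, 24.1% and 24.3%, and 20.2% and 19.3% of genes.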

How the results depend on the processing

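Of 100 member values (10 members in 10 comparisons), 25 were called in the reported fit, and 13 of these kept their direction and call in all 23 other settings. These 13 were WNT5B in RasV12 against T53D4 and ARPE19, SFRP4 in RasV12 against T53D4, AKTmyr and ARPE19, SFRP1 in every called comparison except MekDD against T53D4, and LEF1 in RasV12 and MekDD against AKTmyr. None of the 25 changed direction. Of 50 values called in no setting, 28 changed sign in some setting. DKK1 in RasV12 against T53D4 became -0.03 without RasV12 replicate 3, and ranged to 1.15 over the fits that left out 1 library.

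With the replicate block, the members called went from 5 to 9 for any difference among the lines, where the share of all genes went from 46.1% to 66.2%. They went from 3 to 6 in RasV12 against T53D4 and from 1 to 3 in MekDD against T53D4 (35.8% and 11.7% of all genes with the block). They went from 3 to 7 in AKTmyr against T53D4 (34.8%), 3 to 5 in RasV12 against MekDD (26.4%), 2 to 4 in MekDD against AKTmyr (40.3%), 1 to 4 in MekDD against ARPE19 (22.5%) and 1 to 6 in AKTmyr against ARPE19 (29.6%). In the 2 comparisons that the check did not pair, the block added WNT5A and DKK3 in RasV12 against AKTmyr (log2 0.65 and 0.5) and FZD7 and DKK1 in RasV12 against ARPE19 (log2 1.02 and 0.59). Of all genes, 52.7% and 43.5% were called in these 2 comparisons with the block. After the line means were removed, and among libraries of other lines only, all 15 libraries correlated best with a library of their own number. The block lost none of the 25 calls.

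Without all libraries numbered 2, the deepest, the members called were 2 for any difference, 0 in MekDD against T53D4, 1 in AKTmyr against T53D4, 0 in RasV12 against MekDD, 3 in RasV12 against AKTmyr, 3 in RasV12 against ARPE19 and 0 in MekDD against ARPE19. Over all genes, the calls in these comparisons of 2 lines fell from 694, 2738, 2108, 5490, 4169 and 1479 to 82, 385, 354, 2107, 1250 and 114. For any difference, no count over all genes was made in this setting. The calls lost there and not named above were WNT5B, SFRP4 and AXIN2 in RasV12 against MekDD (edgeR adjusted p = 0.0546, 0.0762 and 0.232), WNT5B, DKK1 and AXIN2 in RasV12 against AKTmyr (0.0936, 0.144 and 0.0564), AXIN2 in AKTmyr against T53D4 (0.211), AXIN2 and LEF1 in RasV12 against ARPE19 (0.17 and 0.0594) and LEF1 in MekDD against ARPE19 (0.29). Without those numbered 3, MekDD against T53D4 had 0, and AXIN2 was lost in RasV12 against MekDD and ARPE19 (edgeR adjusted p = 0.169 and 0.173). Without those numbered 1, AKTmyr against ARPE19 had 3, and LEF1 was lost in MekDD against ARPE19 (adjusted p = 0.15). DESeq2 called 2 in MekDD against ARPE19. Counts over all genes beside the member counts of these last 3 settings are not given here, so the member counts cannot be read against a background. Leaving out 1 library gave 0 to 1 in MekDD against ARPE19, 2 to 4 in AKTmyr against T53D4, 5 to 6 for any difference, 5 to 6 in RasV12 against AKTmyr and 4 to 5 in RasV12 against ARPE19.

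Counts over all genes moved too. With the block they went from 21 to 232 in T53D4 against ARPE19, 694 to 1589 in MekDD and 2738 to 4738 in AKTmyr against T53D4, 2108 to 3588 in RasV12 against MekDD, 3560 to 5481 in MekDD against AKTmyr, 1479 to 3064 in MekDD and 2290 to 4027 in AKTmyr against ARPE19. DESeq2 gave 192 in T53D4 against ARPE19 and 1127 in MekDD against T53D4. With the 2 lines alone they were 2, 1449, 2349 and 1365 in T53D4 against ARPE19, AKTmyr against T53D4, MekDD against AKTmyr and AKTmyr against ARPE19. Without the libraries numbered 2 they were 1 in T53D4 against ARPE19, 934, 82 and 385 in RasV12, MekDD and AKTmyr against T53D4, 354 in RasV12 against MekDD, 2107 and 644 in RasV12 and MekDD against AKTmyr, and 1250, 114 and 284 in the 3 oncogene lines against ARPE19. Without those numbered 1 they were 7 in T53D4 against ARPE19, 1730 in AKTmyr against T53D4 and 890 in MekDD against ARPE19. Without those numbered 3 they were 1 in T53D4 against ARPE19, 1354 in AKTmyr against T53D4, 933 in RasV12 against MekDD and 1099 in AKTmyr against ARPE19. Leaving out 1 library gave 1 to 35 in T53D4 against ARPE19, 360 to 757 in MekDD and 1611 to 2895 in AKTmyr against T53D4, 1352 to 2249 in RasV12 against MekDD, 2271 to 3778 in MekDD against AKTmyr, and 685 to 1619 in MekDD and 1328 to 2339 in AKTmyr against ARPE19. Fits that leave out libraries have fewer samples.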
